A study of Triticum aestivum with 4 samples.

Results

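miR396 and miR530 are microRNA families of wheat (Triticum aestivum), and the deposited table of crown miRNAs listed 4 rows under these names out of 348 miRNAs in all. The rows were taken by name alone, as those whose miRNA name starts with miR396 or miR530 followed by a letter or a hyphen. They were miR396b-5p, miR396c-3p, miR530-3p and miR530-5p, so that each family was represented by 1 row of the 5p arm and 1 row of the 3p arm. Crowns, the stem bases that hold the shoot apical meristem, came from Shimai 22, a semi-winter cultivar grown in the field under natural weather, at the three-leaf stage, winter dormancy, spring green-up (the double ridge stage) and jointing. At each stage, equal parts of total RNA from 3 biological replicates were pooled into 1 small RNA library. The spread between replicates could therefore not be measured, no test between stages was possible, and every interval given here covers counting error only.

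A plant miRNA is cut from a hairpin precursor as a duplex of the 5p and the 3p arm. The arm that is kept in an Argonaute protein guides the cleavage or the translational repression of matching mRNAs, and the other arm is usually degraded. The 5p arm of miR396 is the arm known, from Arabidopsis and rice, to guide the cleavage of mRNAs of growth-regulating factors (GRFs), transcription factors that promote cell proliferation in leaves and meristems. GRFs are also the targets that the study's scheme of the crown gives for miR396. In rice, miR530 is known to act on grain size and panicle branching. No mRNA was measured in this series, so the levels of GRF transcripts in these crowns are not known from these data.

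The 4 sequences are shown because the arm comparison below rests on them. They are the mature sequences as deposited, written 5′ to 3′, with the seed (bases 2 to 8) in capitals.
miR396b-5p: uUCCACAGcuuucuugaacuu
miR396c-3p: gGUCAAGAaagcugugggaag
miR530-3p: aGGUGCAGuggcauaugcaac
miR530-5p: cUGCAUUUgcaccugcaccua

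All 4 were 21 nt long. Their seeds differed from each other, and 0 other listed miRNAs shared the seed of any of them. No other row of the table came within 3 mismatches of a member when shifts of up to 2 nt were allowed. When miR396b-5p was laid against miR396c-3p, 18 of 19 facing bases paired, 17 as Watson-Crick pairs and 1 as a G-U wobble, with an overhang of 2 nt at each 3′ end. The pairing is that of the 2 strands of a miRNA duplex, although the table names the arms after different family members (b and c), and which precursors gave these reads was not analysed here. miR530-5p and miR530-3p paired at 16 of 20 facing bases, with 4 mismatches and an overhang of 1 nt at each 3′ end. miR396b-5p starts with U, miR396c-3p with G, miR530-3p with A and miR530-5p with C.

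Expression was deposited as tags per 1000000 mapped reads (headed TPM, without division by length), written RPM here. The steps between the low values of the table gave library sizes of about 21675000 (three-leaf), 20534000 (dormancy), 21889000 (green-up) and 20801000 mapped reads (jointing). A value of a member rested on 162 to 45393 reads. The values of all 348 listed miRNAs summed to 142826, 135687, 107282 and 68949.9 RPM at these stages in the same order, so that a level on the RPM scale and a share of the listed miRNAs are different measures. Across the miRNAs over 5 RPM in either library of a pair, the median log2 change was -0.01 for dormancy over three-leaf, -0.28 for green-up over dormancy, -0.70 for jointing over green-up and -1.25 for jointing over three-leaf.

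miR396b-5p, the arm that matches GRF mRNAs in other plants, stood at 2094.3 RPM in three-leaf crowns, 1734.1 RPM in dormant crowns, 653.8 RPM in green-up crowns and 769.2 RPM in jointing crowns. The level was high in both libraries before spring and low in both spring libraries, with the lowest value at green-up. The exact 95% Poisson intervals of the 4 values did not overlap, and the closest pair was jointing (757.3 to 781.2 RPM) and green-up (643.1 to 664.6 RPM). Each value rested on 14311 to 45393 reads, so these intervals for counting error are narrow. How many of the other listed miRNAs had intervals apart was not counted. miR396b-5p ranked 17, 17, 22 and 16 among the 348 miRNAs at the 4 stages and held 1.47%, 1.28%, 0.609% and 1.12% of their summed RPM. By this share, green-up was again the lowest library, and jointing came closer to the values before spring.

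miR396c-3p ran the other way. It stood at 155.4 RPM in three-leaf crowns, 179.1 RPM in dormant crowns, 340.4 RPM in green-up crowns and 400.0 RPM in jointing crowns, with the lowest interval at 150.2 to 160.7 RPM and the highest at 391.4 to 408.7 RPM. Each later library was above the one before it, and no intervals overlapped. These intervals were narrow too, at 3368 to 8320 reads per value, and the share of listed miRNAs with such intervals was not counted. The rank of miR396c-3p among the listed miRNAs moved from 62 at the three-leaf stage through 54 and 36 to 24 at jointing, and its share of their summed RPM from 0.109% through 0.132% and 0.317% to 0.580%.

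miR530-3p stood at 69.5 RPM in three-leaf crowns, 13.7 RPM in dormant crowns, 17.9 RPM in green-up crowns and 7.8 RPM in jointing crowns. The three-leaf library stood far above the other libraries, and the interval at dormancy (12.1 to 15.4 RPM) lay just under that at green-up (16.2 to 19.8 RPM). miR530-5p stood at 35.5 RPM in three-leaf crowns, 16.4 RPM in dormant crowns, 12.0 RPM in green-up crowns and 10.2 RPM in jointing crowns. Its value was again highest at the three-leaf stage, but the interval at green-up (10.6 to 13.6 RPM) overlapped that at jointing (8.87 to 11.7 RPM). Both arms of miR530 were of middle or low rank, from 98 at best for miR530-3p at the three-leaf stage to 176 for the same arm at dormancy. Summed over both arms, miR530 stood at 105 RPM in three-leaf crowns, 30.1 RPM in dormant crowns, 29.9 RPM in green-up crowns and 18 RPM in jointing crowns, against 2249.7, 1913.2, 994.2 and 1169.2 RPM for miR396.

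**Figure D1:**
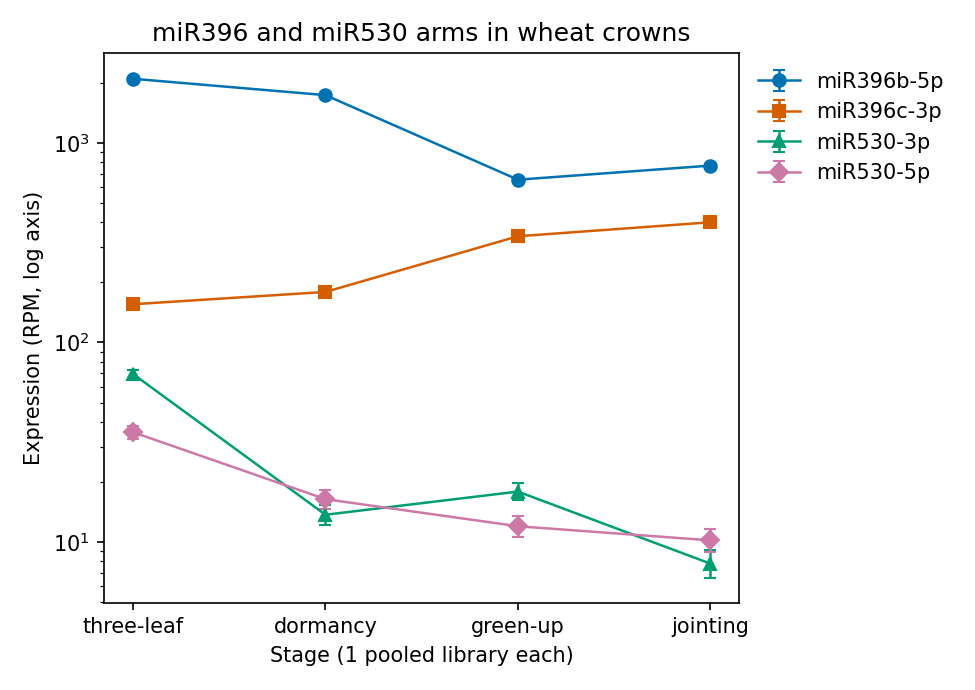
Expression of the 4 arms (RPM, log axis) at the 4 stages, 1 pooled library each, with exact 95% Poisson intervals for counting error as bars. miR396b-5p lay at 2094.3 RPM in three-leaf crowns and 653.8 RPM in green-up crowns while miR396c-3p lay at 155.4 and 340.4 RPM there, and both arms of miR530 were highest at the three-leaf stage.

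To compare stages, a miRNA was called when its log2 change was beyond 1 in either direction (2-fold) and its level exceeded 5 RPM in either library, which are the fold and level thresholds of the study without its p threshold. Between the first 2 stages, miR530 was the family that moved. miR530-3p fell to 13.7 RPM at dormancy, against 69.5 RPM at the three-leaf stage, a log2 change of -2.34 (exact 95% interval -2.53 to -2.16). miR530-5p fell to 16.4 RPM at dormancy, against 35.5 RPM at the three-leaf stage (-1.11, -1.30 to -0.93). The log2 changes of miR396b-5p (-0.27) and miR396c-3p (0.20) stayed far from the threshold. Thus 2 of the 4 arms were called lower and 0 higher, where 16.3% of the 252 miRNAs compared were called lower and 10.3% higher. These shares and ranks, and the medians over listed miRNAs, include miRNAs at 0 in a library, here and in the other pairs. Such miRNAs were set to 3 reads and always called. Without them, 26 miRNAs in place of 67 were past 2-fold in this pair, both directions together. The 4 arms were above 0 in every library. miR530-3p ranked 28 of 252 from the lowest change, and miR530-5p ranked 40. Under median-ratio scaling miR530-5p came to -0.96, short of the threshold.

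From dormancy to green-up, the arms of miR396 moved apart, the 5p arm down and the 3p arm up. miR396b-5p fell to 653.8 RPM at green-up, against 1734.1 RPM at dormancy, a log2 change of -1.41 (-1.44 to -1.38). In the same pair miR396c-3p stood at 340.4 RPM at green-up, against 179.1 RPM at dormancy, a log2 change of 0.93 (0.87 to 0.98) just under the threshold. The changes of miR530-3p (0.39) and miR530-5p (-0.45) were smaller. Only miR396b-5p among the 4 was called, as lower, where 28.8% of the 250 miRNAs compared were called lower and 17.2% higher. Among these 250, miR396b-5p ranked 54 from the lowest change and miR396c-3p ranked 44 from the highest. These calls depended on the scaling of the libraries. miR396c-3p passed as higher under each of the 3 other scalings, at 1.27 when libraries were scaled to the summed RPM of all listed miRNAs, 1.66 when miR159a.1 and miR168a-5p, the pair of most abundant miRNAs, were left out of that sum, and 1.13 under median-ratio scaling. miR396b-5p had -1.07, -0.68 and -1.20 under the same scalings, so that its call was lost without these 2 miRNAs. In that scaling miR530-3p was called higher, at 1.12. In each of them the miR396 arms moved in opposite directions, while the change of miR530-5p turned to 0.28 under the sum without these 2 miRNAs.

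From green-up to jointing, the log2 changes of both miR396 arms were nearly equal, 0.23 for miR396b-5p (0.20 to 0.27) and 0.23 for miR396c-3p (0.19 to 0.28). Both lay above the median change of the listed miRNAs, -0.70. miR530-3p fell to 7.8 RPM at jointing, against 17.9 RPM at green-up (-1.20, -1.47 to -0.93), the only call among the 4 arms in this pair, where 37.8% of the 238 miRNAs compared were called lower and 16.4% higher. It lost the threshold under the 3 other scalings, at -0.56, -0.92 and -0.66. miR530-5p stood at 10.2 RPM at jointing, against 12.0 RPM at green-up, a log2 change of -0.23 whose interval, -0.51 to 0.03, includes 0 and which turned positive under the other scalings.

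Over the whole period, 3 of the 4 arms were called lower and 1 higher at jointing than at the three-leaf stage. The background was 54.6% lower and 16.9% higher of the 260 miRNAs compared, so that a lower value was the commonest outcome in this pair. miR530-3p stood at 7.8 RPM at jointing, against 69.5 RPM at the three-leaf stage, a log2 change of -3.16 (-3.40 to -2.92) or an 8.91-fold lower level. The log2 changes of miR530-5p and miR396b-5p were -1.80 (-2.03 to -1.58) and -1.45 (-1.47 to -1.42). From the median of -1.25 over all miRNAs compared they differed by -0.55 and -0.20, so that miR396b-5p lay closer to it. miR396c-3p stood at 400.0 RPM at jointing, against 155.4 RPM at the three-leaf stage, a log2 change of 1.36 (1.31 to 1.42) or 2.57-fold, and ranked 40 of 260 from the highest. The median over the 4 arms, which went in opposite directions, was -1.62 and does not describe a common change. Under each of the 3 other scalings the calls of miR396c-3p (2.26 to 2.41) and miR530-3p (-2.26 to -2.10) remained, and those of miR396b-5p (-0.55 to -0.39) and miR530-5p (-0.90 to -0.75) did not.

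**Figure D2:**
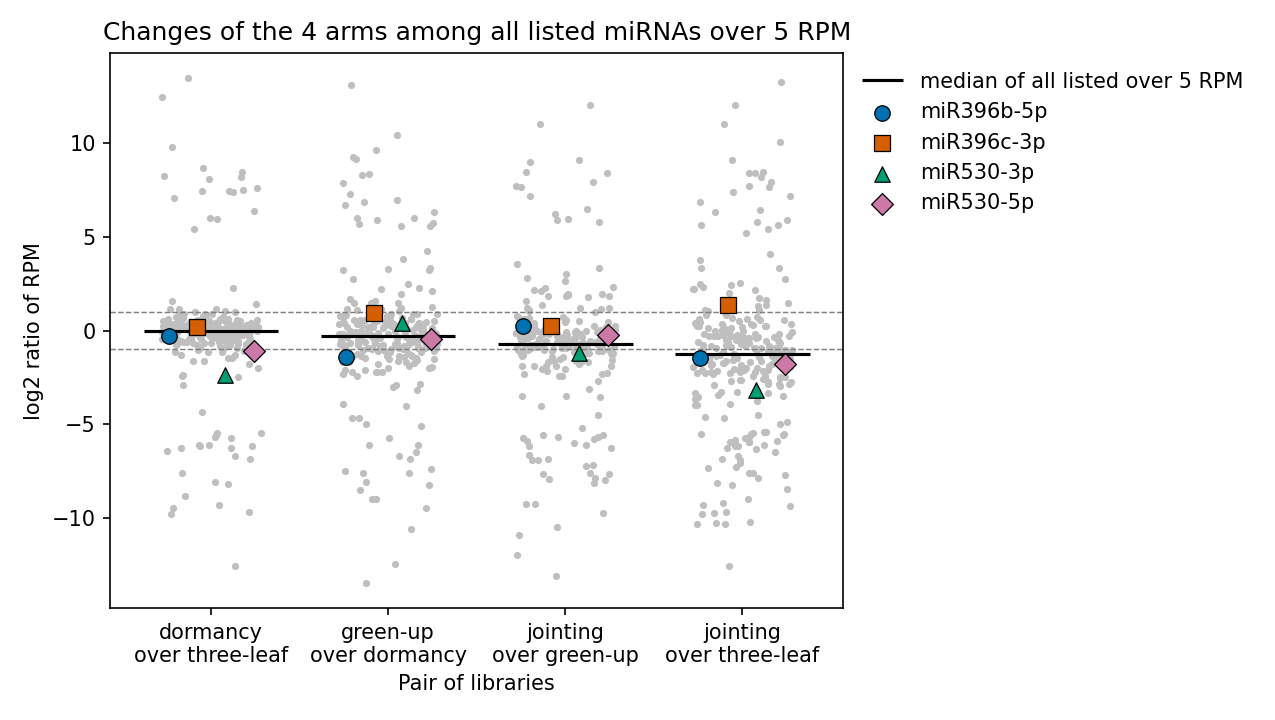
log2 ratio of RPM of every listed miRNA over 5 RPM in at least 1 of the 2 libraries (grey points) in 4 pairs of libraries, with the 4 arms marked, the median as a black line and the 2-fold threshold as dashed lines. Points beyond about 5 in either direction are mostly miRNAs listed at 0 in a library and set to 3 reads. For jointing over three-leaf the median was -1.25, with miR396c-3p at 1.36 and miR530-3p at -3.16.

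In both remaining pairs of stages miR396c-3p was the arm called higher. At green-up against the three-leaf stage, 3 of the 4 arms were called lower and 1 higher, where 34.8% of 256 miRNAs were called lower and 15.6% higher. The log2 changes were -1.68 for miR396b-5p, 1.13 for miR396c-3p, -1.96 for miR530-3p and -1.56 for miR530-5p. When the sum without miR159a.1 and miR168a-5p was used for scaling, only 1 arm was called lower and 1 higher, with miR396b-5p at -0.91 and miR530-5p at -0.80. At jointing against dormancy, miR396b-5p was called lower (-1.17) and miR396c-3p higher (1.16), where 53.2% of 250 miRNAs were called lower and 17.2% higher. The call of miR396b-5p was lost under the 3 other scalings, at -0.20, -0.17 and -0.43, while that of miR396c-3p remained. miR530-3p (-0.81) and miR530-5p (-0.69) were under the threshold in this pair, and both turned positive when scaled to the listed miRNAs, at 0.16 and 0.29.

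Scaling moved the balance of calls over all listed miRNAs as well. On the deposited RPM, the share of higher calls among all calls was 37.4% for green-up over dormancy, 30.2% for jointing over green-up and 23.7% for jointing over three-leaf. Scaled to the summed RPM of the listed miRNAs it was 49.6%, 47.2% and 43.0%. Those scaled values correspond to 57 higher and 58 lower, 50 higher and 56 lower, and 71 higher and 94 lower calls, against 43 and 72, 39 and 90, and 44 and 142 on the deposited RPM. For green-up over three-leaf the share was 31.0% on the deposited RPM and 53.3% when scaled, and for jointing over dormancy 24.4% and 44.97%. The sums behind this scaling raised log2 changes by 0.34, 0.64 and 1.05 in the first 3 of these comparisons. With miR159a.1 and miR168a-5p left out of the sum, the share of higher calls was 66.9% for green-up over dormancy and 67.2% for green-up over three-leaf. By each of the 4 scalings, miR396c-3p stood above its three-leaf value at every later stage, and miR396b-5p, miR530-3p and miR530-5p stood below theirs.

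**Figure D3:**
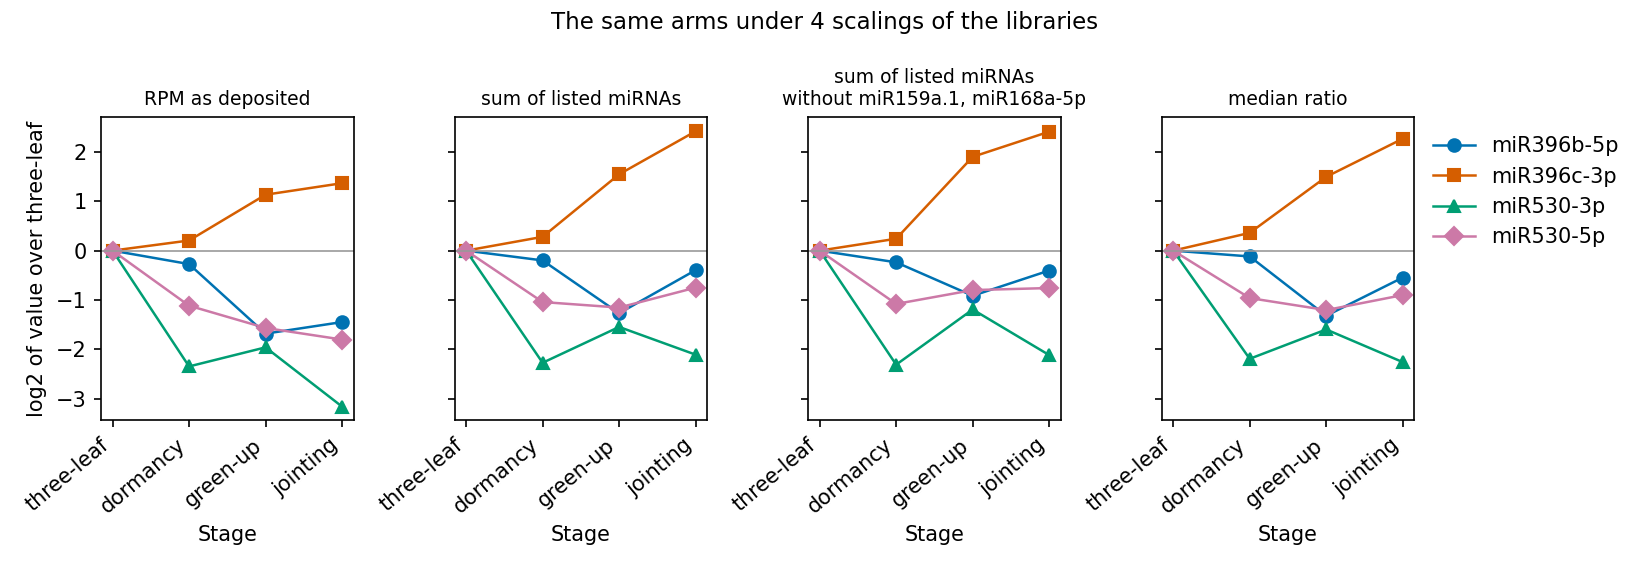
log2 of the value over the three-leaf library for the 4 arms at the 4 stages, in panels by scaling: RPM as deposited, scaled to the summed RPM of the listed miRNAs, the same without miR159a.1 and miR168a-5p, and median ratio. At jointing miR396c-3p stood at 1.36, 2.41, 2.41 and 2.26 in the 4 panels, and miR396b-5p at -1.45, -0.39, -0.40 and -0.55.

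The ratio of the miR396 arms does not depend on the scaling, since both arms were counted in the same library. miR396b-5p was 13.5 times miR396c-3p at the three-leaf stage (exact 95% interval 13.0 to 14.0), 9.68 times at dormancy (9.36 to 10.02), 1.92 times at green-up (1.87 to 1.98) and 1.92 times at jointing (1.87 to 1.97). The ratio thus dropped in a single large step between dormancy and green-up and was the same, within counting error, in both spring libraries. The 3p arm held 6.91%, 9.36%, 34.2% and 34.2% of the miR396 RPM at the 4 stages. On the log2 scale, the ratio fell by 2.33 at green-up against dormancy (interval of the change -2.40 to -2.27), or 5.04-fold. The change of dormancy over three-leaf was -0.48 (-0.55 to -0.41), and that of jointing over green-up was 0.0017 (-0.05 to 0.06). At jointing against the three-leaf stage the ratio fell by 2.81 (-2.87 to -2.75), or 7.01-fold. The step at green-up came from both arms, since on the deposited RPM miR396b-5p was 2.65-fold lower there than at dormancy and miR396c-3p 1.90-fold higher. Unlike the ratio, the part of each arm depended on the scaling. The log2 changes of miR396b-5p and miR396c-3p were -1.07 and 1.27 when scaled to the listed miRNAs. They were -0.68 and 1.66 without miR159a.1 and miR168a-5p in that sum, and -1.20 and 1.13 under median-ratio scaling.

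The ratio of the miR530 arms had no such course. miR530-3p was 1.96 times miR530-5p at the three-leaf stage (1.79 to 2.14), 0.835 times at dormancy (0.709 to 0.980), 1.49 times at green-up (1.27 to 1.75) and 0.765 times at jointing (0.619 to 0.942). The 3p arm was therefore the more abundant one at the three-leaf stage and green-up and the less abundant one at dormancy and jointing. The log2 change of this ratio was -1.23 for dormancy over three-leaf (-1.50 to -0.97), 0.84 for green-up over dormancy (0.51 to 1.17) and -0.96 for jointing over green-up (-1.35 to -0.58). For jointing over dormancy it was -0.13, with an interval of -0.51 to 0.26 that includes 0. These ratios rest on far fewer reads than those of miR396, with 162 reads of miR530-3p and 212 of miR530-5p at jointing.

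**Figure D4:**
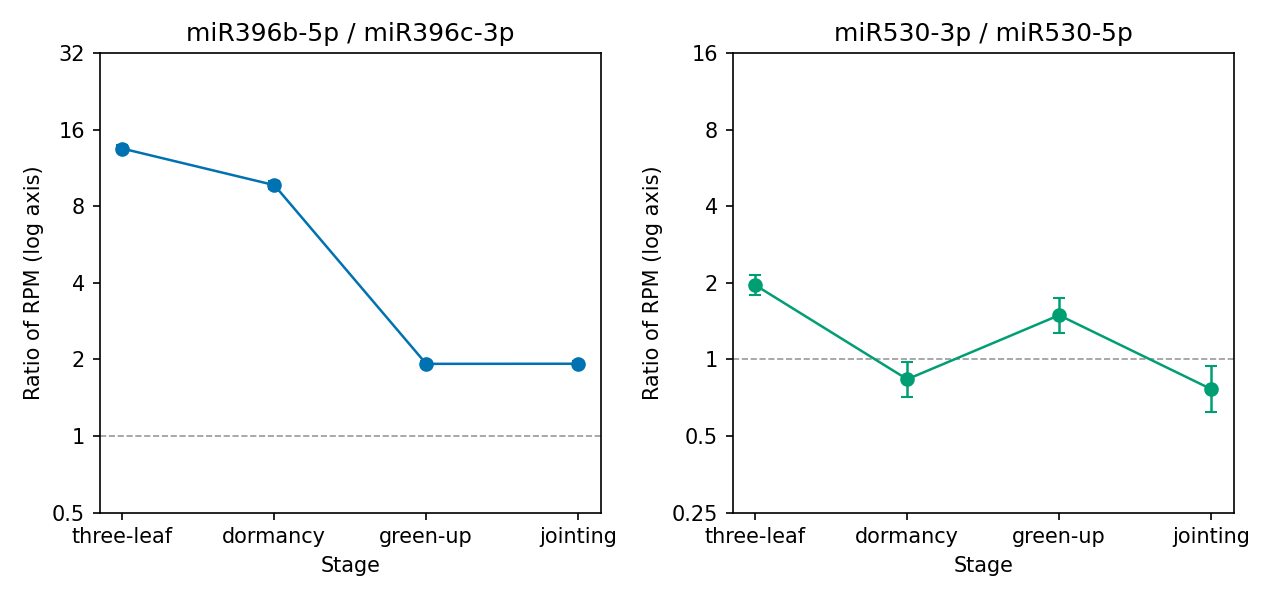
Ratio of the RPM of miR396b-5p to miR396c-3p (left) and of miR530-3p to miR530-5p (right) at the 4 stages, on log axes that span the same number of doublings, with exact 95% intervals for counting error. The miR396 ratio was 13.5, 9.68, 1.92 and 1.92, and the miR530 ratio moved to either side of 1 (dashed line).

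To see how common such a change was, the 5p to 3p ratio was computed for every family of the table with rows of both arms, summed over members. There were 28 such families, of which 21 had both arms above 0 at dormancy and at green-up. In this pair the 5p to 3p ratio was past 2-fold lower in 2 families (9.52%) and higher in 3 (14.3%). miR396 had the largest change of the 21. The other lower one was miR171 (-2.27), whose 5p arm was listed at only 0.3 RPM at green-up and 2.2 RPM at dormancy. When both arms had to reach 5 RPM in both libraries, 12 families remained and 2 were past the threshold, miR396 and miR172. In miR172, a family whose 3p arm guides the repression of AP2-type flowering repressors in other plants, the ratio rose by 1.91 on the log2 scale, with 109.2 RPM of the 5p arm at green-up and 23 RPM at dormancy. The median size of the change over the 21 families was 0.57, without regard to sign, and miR530 ranked 6 with -0.84 as 5p over 3p.

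At green-up against the three-leaf stage miR396 again had the largest change, of 22 families, with 2 (9.09%) lower and 6 (27.3%) higher past 2-fold. At jointing against dormancy it ranked 2 of 19 families, with 7 (36.8%) lower and 2 (10.5%) higher. At jointing against the three-leaf stage miR396 ranked 2 of 20, with 4 (20%) lower and 4 (20%) higher. There the largest change was that of miR6224 (-5.93), whose 5p row has the same sequence as a row named miR6220-5p and stood at 2.8 RPM at jointing and 201.1 RPM at the three-leaf stage. After miR396 followed miR165 (-2.59), whose 3p value equals the sum of 2 miR164 rows, miR172 (1.90), miR393 (1.65) and miR530 (1.36). With at least 5 RPM in both arms, 15 families remained in this pair and miR396 had the largest change. In the other pairs miR396 did not stand out. It ranked 14 of 23 families at dormancy against the three-leaf stage, where 1 (4.35%) was lower and 5 (21.7%) were higher, miR530 among them at 1.23. It ranked last of 20 at jointing against green-up, where 4 (20%) were lower and 1 (5%) higher.

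**Figure D5:**
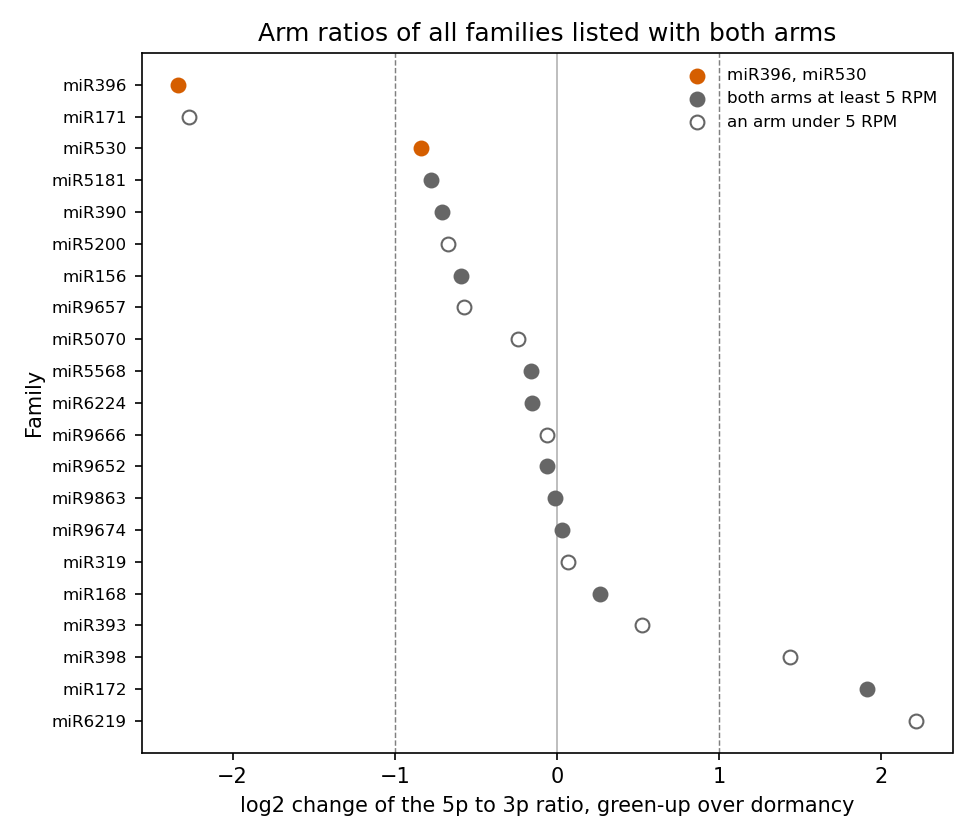
log2 change of the 5p to 3p ratio, green-up over dormancy, for the 21 families with both arms above 0 in both libraries, ordered by the change. Open circles mark families with an arm under 5 RPM, and dashed lines the 2-fold threshold. miR396 lies at -2.33, the lowest of the 21.

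Patterns over the 4 stages were compared by the root mean square difference of log2 RPM, each miRNA centred on its own mean, over the 182 other miRNAs above 0 in all libraries and over 5 RPM in at least 1. Since each pattern has only 4 points, likeness is a description. The miRNA most like miR396b-5p was miR168a-5p, which targets the Argonaute gene AGO1, with 36517.2, 32038.5, 12526.9 and 13669.6 RPM at the 4 stages and a difference of 0.05 log2 units. miR399b, a regulator of the phosphate gene PHO2, followed at 0.09, and miR5071 at 0.13. Most like miR396c-3p were miR845c (0.13), miR6219-5p (0.22) and miR8636 (0.23), each with its lowest value at the three-leaf stage. miR845c and miR8636 stood at 12.7 and 11 RPM at most, against 400.0 RPM for miR396c-3p. The pattern of miR396b-5p itself ranked 119 of 182 by likeness to miR396c-3p, at 1.30 log2 units.

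The nearest patterns to miR530-5p were wheat_miR810 (0.17), miR170-3p (0.23) and miR5813 (0.23), and those nearest to miR530-3p were miR894 (0.43), miR393b-3p (0.43) and miR5077 (0.45). miR530-5p ranked 5 of 182 by likeness to miR530-3p, at 0.57. In the other direction, miR530-3p ranked only 52 of 182 by likeness to miR530-5p, and miR396b-5p was nearer, ranked 17 at 0.37. The difference between the miR530 arms was smaller than that between the miR396 arms by this measure, 0.57 against 1.30 log2 units.

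The other conserved families of the table, most of which target transcription factors, comprised 45 rows without miR396. At green-up against dormancy, 34 of them exceeded 5 RPM in either library, and 14 were called lower and 9 higher, with a median log2 change of -0.72. At jointing against the three-leaf stage, 36 did, of which 24 were called lower and 8 higher, with a median of -1.55. The value of miR396b-5p at jointing over three-leaf, -1.45, was close to that median, and that of miR396c-3p was not. At dormancy against the three-leaf stage, 6 of 35 were called lower and 4 higher (median -0.18), and at jointing against green-up 13 of 35 lower and 10 higher (median -0.28). Of all miRNAs compared, 28.8% were called lower and 17.2% higher at green-up against dormancy. The shares were 54.6% and 16.9% at jointing against the three-leaf stage. They were 16.3% and 10.3% at dormancy against the three-leaf stage, and 37.8% and 16.4% at jointing against green-up.

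The study sets miR396 and miR530 beside miR398, miR6300 and miR6173 as miRNAs with predicted targets upstream in terpene synthesis. It describes miR396, miR530, miR398 and miR6300 as induced or suppressed in winter dormancy, without a direction or a compared stage for each. At dormancy against the three-leaf stage, miR398a-3p had 91.7 and 76.3 RPM, miR398f-5p 76.7 and 42.2 RPM, and miR6300 157.4 and 123.3 RPM. Their log2 changes, 0.27, 0.86 and 0.35, were all short of the threshold, and positive where those of both miR530 arms and of miR396b-5p were negative. The change of miR396c-3p in this pair, 0.20, was positive as well. miR6173 was listed at 0 at dormancy and in both spring libraries, and at 11.1 RPM at the three-leaf stage. At green-up against dormancy, miR398a-3p (-4.63), miR398f-5p (-3.19) and miR6300 (-2.08) all fell further than miR396b-5p did.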

How the data were processed

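The values are RPM as deposited, which the authors computed as tags per 1000000 mapped reads, with 1 decimal kept for known miRNAs and 2 decimals for wheat_miRNAs. A read counted as a known miRNA when BLASTN matched it to miRBase's plant miRNAs at under 2 mismatches, so that reads of close variants can share a name, which can move arm ratios. The version of BLASTN is not given in the sources used here. Library sizes were recovered from the wheat_miRNA values above 0 and under 60 RPM that carry 2 decimals. All 174 such values then gave whole reads (within about 0.005 RPM), and the reads of a member are known to about 1 read. A 0 was set to 3 reads. Single values have exact Poisson intervals, ratios exact binomial intervals and changes of ratios conditional exact intervals, all at 95%. They cover counting error only, since the replicates of a stage were pooled into 1 library. PCR copies of a molecule cannot be told from separate molecules, so the intervals may be too narrow even for that. No test was possible with 1 pooled library per stage.

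Median-ratio scaling used the miRNAs over 5 RPM in all libraries. Rows named in the text are the members, the 3 miRNAs nearest to each in pattern, the rows of miR398, miR6300 and miR6173, and the families whose arm ratio changed most. miR171 and miR6220-5p were added after their values were seen. The members and lists were chosen with earlier results of these data known. Python 3.11.15, numpy 2.4.6, scipy 1.17.1 and matplotlib 3.10.9 were used. The positions of these miRNAs in the wheat genome and sites in GRF transcripts were not analysed here.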

Additional observations from a re-analysis of the deposited data

How the results depend on the processing

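The log2 changes at jointing over three-leaf kept their sign under every scaling tried and moved beyond their counting intervals. Scaled to the summed RPM of the listed miRNAs, to that sum without miR159a.1 and miR168a-5p, and by the median ratio, miR396b-5p had -0.39, -0.40 and -0.55, miR396c-3p 2.41, 2.41 and 2.26, miR530-3p -2.10, -2.11 and -2.26, and miR530-5p -0.75, -0.76 and -0.90. A pseudocount of 1 RPM left the changes of all 4 arms and of both arm ratios within their intervals in every pair of stages. When miRNAs at 0 in either library were left out, the miRNAs past 2-fold numbered 26 in place of 67 for dormancy over three-leaf, 84 in place of 129 for jointing over green-up and 119 in place of 186 for jointing over three-leaf. When both arms had to reach 5 RPM, the families past 2-fold in their arm ratio numbered 3 in place of 6 for dormancy over three-leaf, 2 in place of 5 for green-up over dormancy, 2 in place of 5 for jointing over green-up, 4 in place of 8 for green-up over three-leaf, 5 in place of 9 for jointing over dormancy and 5 in place of 8 for jointing over three-leaf. A miRNA at 0 in a library was set to 3 reads and had to exceed 5 RPM in the other, so it was always past 2-fold. For the arm ratios, the cause was not tested beyond the smaller number of families compared. No alternative turned the sign of a called change. Leaving out a library ends every comparison it enters, since each stage has 1. No paired analysis was possible because each stage has 1 pooled library. Depth limits the miR530 arms most, at 162 to 212 reads at jointing.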
